A study of Mus musculus with 617 samples.

Results

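The 9 genes described here are tied to canonical Wnt signalling and were measured in 617 single mouse cells: Axin2, Sp5, Nkd1, Cdx1 and Lgr5, which are known transcriptional targets of the pathway, and Lef1, Tcf7, Tcf7l1 and Tcf7l2, which encode its DNA-binding factors. The 9 were taken by symbol from 43628 genes, and all 9 had a row in each of the 4 deposited FPKM tables (fragments scaled to the length of the transcript and to the depth of the library). A hybrid embryonic stem (ES) cell line of each sex, from a male CAST/EiJ and a female C57BL/6J, was grown in 2i and LIF (60 female and 51 male cells) or in serum and LIF (68 and 52 cells). Both lines were also turned into Epi cells with Activin A and FGF2 (79 and 63 cells), and into motor neuron cultures through embryoid bodies with retinoic acid and the smoothened agonist SAG (39 and 35 cells). A female Epi culture of 7 passages gave 41 cells. Cells from embryos were 23 of the E3.5 inner cell mass and 23 of the E4.5 epiblast of the same cross, with no sex given, and 20 female and 63 male cells of the E5.5 epiblast of C57BL/6J parents.

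In the canonical pathway, GSK3 within a destruction complex marks beta-catenin for degradation. Wnt ligands or a GSK3 inhibitor let beta-catenin accumulate, and in the nucleus it binds Tcf and Lef factors at target genes. Tcf7l1 (Tcf3) acts mostly as a repressor in ES cells, where it holds down Nanog, Esrrb, Klf2 and Tfcp2l1, while Lef1 and Tcf7 are mostly activators. The 2i medium is generally a GSK3 inhibitor with a MEK inhibitor, so the 2 inhibitors and the absence of serum cannot be told apart in a comparison with serum.

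Each state was 1 culture per line, and the mean FPKM over the cells of a culture was 1 sample, because cells are not replicates. Each sex is 1 line, so sex and line cannot be told apart. Median cells held 8122 to 10839.5 genes at 1 FPKM or more, and read counts were not used here. Labels were set against marker genes. The female Epi culture kept the naive marker Zfp42 at a mean of 72.5 FPKM, against 0.0687 in the male Epi culture, and had Fgf5, a primed marker, at 14.1 against 144.9. In the motor neuron cultures Lhx3 was at 0.0199 and 0 FPKM, Mnx1 at 1.59 and 0.877, and Isl1 at 129 and 190. Slc18a3 and Chat, the other motor neuron markers, had means of 1 FPKM or more in both cultures. Of these 5 markers, 4 were at that mean in the female culture and 3 in the male. The endoderm factor Sox17 reached 89.5 and 346. E4.5 epiblast cells held Krt18 at 864 FPKM and Cdx2 at 48.6. E5.5 epiblast cells held the visceral endoderm gene Ttr at 586 (female) and 176 (male) FPKM and Apoa1 at 1585 and 424. In bulk means of this kind, fewer cells with a gene and less RNA per cell cannot be told apart, so shares of cells are given beside the means.

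Upstream sequences of 2 genes are shown because Axin2 and Sp5 had the same all-cell pattern in 2i (described next) and differ in their stretch of 250 bases before the annotated start. The letters CTTTGAA or CTTTGAT or CTTTGTA or CTTTGTT, a common form of the Tcf and Lef site, were searched on both strands. CTTTGTA and CTTTGTT contain CTTTGT, which is also the core bound by Sox factors. Sequences are from RefSeq (GRCm38.p6), 5′ to 3′ on the strand of the gene, and capitals mark matches.
Sp5 (chr2:70474673-70474922, + strand): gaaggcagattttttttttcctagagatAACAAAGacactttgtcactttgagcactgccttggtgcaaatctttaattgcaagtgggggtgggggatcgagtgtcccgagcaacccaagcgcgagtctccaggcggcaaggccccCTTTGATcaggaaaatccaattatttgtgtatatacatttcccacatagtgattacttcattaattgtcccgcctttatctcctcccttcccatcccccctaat
Axin2 (chr11:108920099-108920348, + strand): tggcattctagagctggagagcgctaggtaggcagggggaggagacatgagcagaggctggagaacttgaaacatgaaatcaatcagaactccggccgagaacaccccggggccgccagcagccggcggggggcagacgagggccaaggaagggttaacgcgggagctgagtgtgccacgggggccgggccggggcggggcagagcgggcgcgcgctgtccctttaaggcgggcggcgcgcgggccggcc
The Sp5 stretch held 2 matches, one on the opposite strand whose first base lay 222 bases before the start and one on the same strand, nearer to it. The Axin2 stretch held none. Of 32851 promoters in the table, 14.8% held at least 1 match and 1.43% held 2 or more. Promoters of 7 of the 9 genes were searched, 12 in all, and 3 of the 12 held a match: Sp5, 1 of 4 Lef1 promoters and 1 of 2 Tcf7l2 promoters. A match is a string of letters in this window and does not show that a factor binds.

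Axin2, Sp5 and Cdx1 were at 1 FPKM or more in every cell in 2i, and in few serum cells. All 3 were present together in 60 of 60 female and 51 of 51 male cells in 2i, with exact (Clopper-Pearson) 95% intervals of 94 to 100% and 93 to 100%. In serum this held for 0 of 68 female cells, which allows a share of up to 4.41% (for every count of 0 here the limit is 3 cells of the total, not the end of the exact interval), and for 1 of 52 male cells (1.92%). None of the 3 was present in 77.9% of female and 59.6% of male serum cells. The pattern was not common among genes: of the 15504 genes whose culture means averaged 1 FPKM or more, 3260 were present in every 2i cell, and 9 of those (0.0580% of all) were present in at most 30% of cells of both serum cultures. The 9 were Trpm1, AA467197, Tnni1, Crxos, Srarp, T, Sp5, Cdx1 and Axin2. This rule was set after the values were seen, to match Axin2, Sp5 and Cdx1, so these 3 had to pass. Cdx1 was among the 15504 genes through its level in 2i, as the 6 other cultures averaged 0.864 FPKM. The share is a description and lends these 3 genes no support. The exact intervals above cover counting of cells only.

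**Figure D1:**
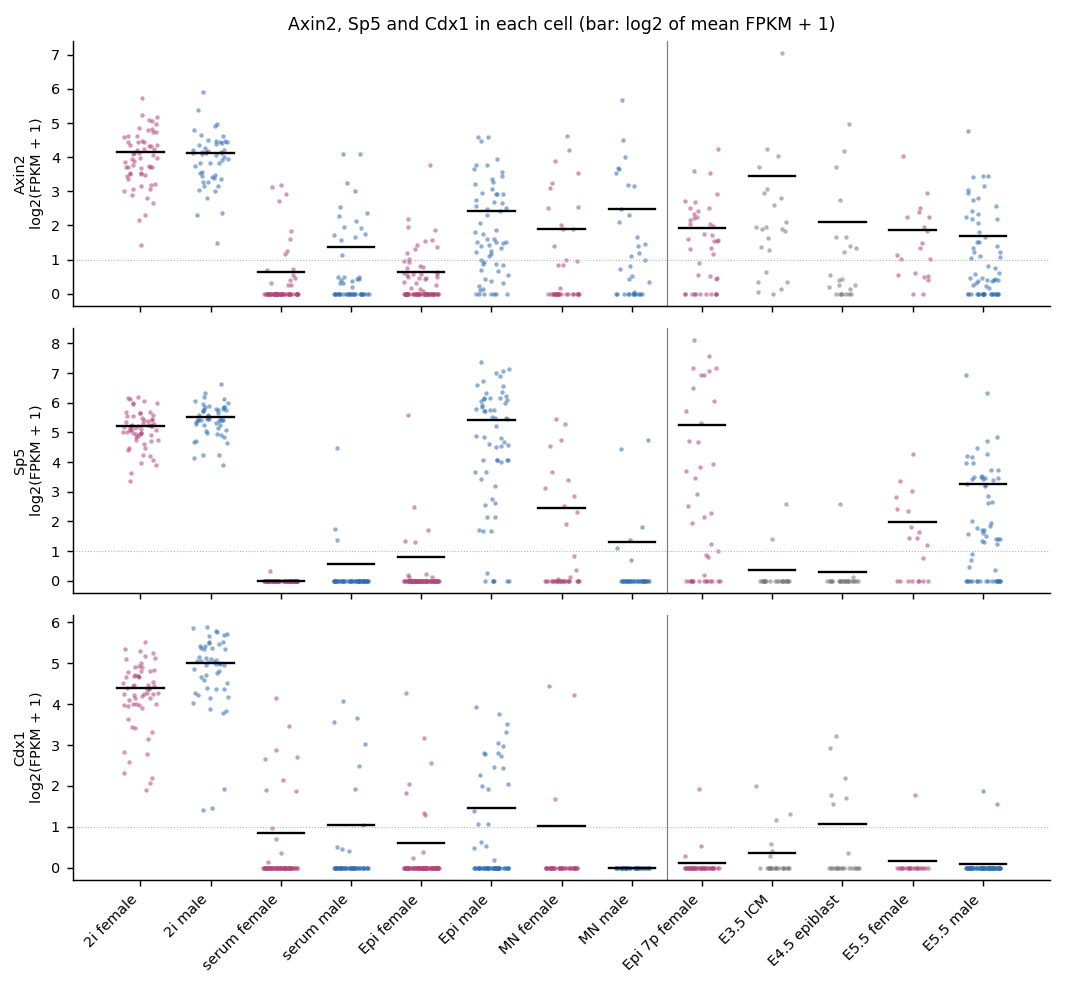
Axin2, Sp5 and Cdx1 in each cell, as log2(FPKM + 1) on the vertical axis, by culture or embryo stage (pink, female; blue, male; grey, sex not given; MN, motor neuron; 7p, 7 passages). Bars are log2 of the mean FPKM + 1, the dotted line is 1 FPKM, and the vertical line separates the 8 cultures of 1 table from groups in other tables. All 60 female and 51 male cells in 2i lie above the dotted line in all 3 panels.

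Axin2 (ENSMUSG00000000142, chromosome 11, 108920349 to 108950783 of mm10, + strand) encodes a scaffold of the destruction complex and is a widely used feedback target. Its mean level was 16.7 FPKM in female and 16.3 in male 2i cells, 0.560 and 1.59 in serum, 0.542 and 4.42 in Epi, and 2.69 and 4.59 in the motor neuron cultures. Both 2i cultures stood above all 6 others. The difference from serum was 3.12 ± 0.63 (SE) on the log2(FPKM + 1) scale and did not pass the test (limma, Benjamini-Hochberg adjusted p = 0.152, 2 against 2 cultures). Against Epi it was 2.60 ± 0.63 (limma, adjusted p = 0.143), and against motor neuron cultures 1.95 ± 0.63 (adjusted p = 0.0520, limma). With the line as a replicate block, the last of these passed at a limma adjusted p of 0.0278. Within 2i the level ranged from 1.70 to 52.4 FPKM over female cells, with a median of 14.6.

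Sp5 (ENSMUSG00000075304, chromosome 2, 70474923 to 70477729, + strand) encodes a zinc finger factor of the Sp family and is a direct target in ES cells and the primitive streak. Its mean was 36.4 FPKM in female and 44.5 in male 2i cells, against 0.00362 and 0.483 in serum. In serum 67 of 68 female cells and 49 of 52 male cells were listed at 0. The log2 difference from serum was 5.08 ± 1.37 and did not pass (limma, adjusted p = 0.262). With nearly all serum cells at 0 its size depends on the pseudocount, and with 0.1 it was 7.36 (limma, adjusted p = 0.194). The 2 Epi cultures went apart: the female one was at 0.729 FPKM with 6.33% of cells at 1 FPKM or more, and the male one at 42 with 88.9%. The male Epi culture thus lay between the 2 cultures in 2i. Pluripotency markers moved with this: 7 of 7 were at a mean of 1 FPKM or more in female Epi (sum per cell 15.1 to 2771) and 2 of 7 in male Epi (15.4 to 1185). Of 7 endoderm markers, 2 were at that mean in female Epi (median sum 0, highest 141.3) and 4 in male Epi (34 and 832), with Ttr listed at 0 in both. The 4 primed epiblast markers had median sums of 124.6 and 333, while 4 of them in female and 3 in male Epi were at a mean of 1 FPKM or more. The part of these markers in the Sp5 levels was not tested. Against Epi the difference was 2.26 ± 1.37 (limma, adjusted p = 0.482), made of 4.43 in the female line and 0.08 in the male line, and without the female Epi culture it was -0.06. The female culture of 7 passages, in a separately normalised table, was at 36.7 FPKM with 56.1% of cells.

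Cdx1 (ENSMUSG00000024619, chromosome 18, 61018862 to 61036199, minus strand), is a caudal-type homeobox gene of the posterior embryo and gut. Its mean was 20.03 FPKM in female and 30.96 in male 2i cells. The highest of the other 11 groups was male Epi at 1.77, followed by the E4.5 epiblast at 1.10, male serum at 1.06 and female motor neuron at 1.05. The remaining groups ran from 0.806 in female serum and 0.510 in female Epi down to 0 in the male motor neuron culture. In E5.5 cells the means were 0.121 and 0.0737, with 5.00% and 3.17% of cells at 1 FPKM or more. The gaps among these low groups were not tested, and several means rest on 1 to 3 cells.

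Cdx1 was the one gene among the 9 called higher in 2i than in Epi, by 3.67 ± 0.50 on the log2(FPKM + 1) scale (limma, adjusted p = 0.0446). Cdx1 passed the filter, a mean of 1 FPKM over the 8 cultures, through its level in 2i: the 6 other cultures averaged 0.864 FPKM. Without the filter the call against Epi was lost (adjusted p = 0.0955, limma). The call was narrow: it held in 5 of 20 alternatives, with a lowest adjusted p of 0.00253 (limma, mean of log2 values over cells). Among these 5 is dropping the fold-change threshold, which reuses the main fit and cannot end a call. The call was lost with the line as a replicate block (limma, adjusted p = 0.0675). Leaving out any 1 of the 8 cultures also ended it, with the female Epi culture giving 0.0525 and the male 2i culture 0.271. Against the motor neuron cultures Cdx1 was called higher by 4.18 ± 0.50 (limma, adjusted p = 0.00250), and all 20 alternatives kept the call. The male motor neuron culture was listed at 0 in 35 of 35 cells, so the size depends on the pseudocount (6.21 with 0.1) and is no fold. Against serum its difference of 3.75 ± 0.50 did not pass (limma, adjusted p = 0.0778).

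Counted over all tested genes, 2i against serum gave few calls for any gene. Of 15504 genes, 2 (0.0129%) were called higher and 1 (0.00645%) lower in 2i by limma, at an adjusted p under 0.05 and a log2 difference of at least 1, while 1549 had an unadjusted p under 0.05. Lgr5 was below the mean of 1 FPKM and was not tested, and 0 of the other 8 genes were called. Of those 8, 3 (Axin2, Sp5 and Cdx1) had an unadjusted p under 0.05. Averaging log2 values over cells, in place of taking the log of the mean, called Axin2 (limma, adjusted p = 0.0240) and Cdx1 (0.00349), and over all genes 213 higher and 11 lower. Both 2i cultures lay above both serum cultures for 6 of the 8 (Axin2, Sp5, Tcf7, Tcf7l2, Nkd1 and Cdx1), as they did for 26.2% of all genes, and below for 0 of the 8, against 27.1% of all genes. The median difference over the 8 was 0.65, beside 0.00 over all genes.

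Against Epi, limma called 0.374% of all genes higher and 0.290% lower in 2i, with Cdx1 the sole call among the 8. The 2i cultures lay above both Epi cultures for Axin2 and Cdx1 (18.4% of all genes) and below both for Lef1 and Tcf7l1 (33.8% of all genes). Against the motor neuron cultures 3.96% of genes were called higher and 29.6% lower. Of the 8, Cdx1 and Lef1 were called higher and Tcf7l2 lower. The 2i cultures lay above both motor neuron cultures for 5 of 8 (16.9% of all genes) and below both for 3 of 8 (54.5% of all genes). The median difference of all genes was -0.66 in this comparison, and 11.8% of the called genes were higher in 2i. With upper-quartile scaling that median was 0.00, 41.6% of the called genes were higher, and Axin2, Lef1, Tcf7l2 and Cdx1 were called. On that scaling the differences were 3.17 for Lef1, -1.97 for Tcf7l2 and 4.53 for Cdx1 (limma, adjusted p = 0.0173, 0.0471 and 0.00284). With each cell rescaled to a sum of 1000000, 29.2% of the called genes were higher than in motor neuron cultures, and 43.3% in place of 56.3% higher than in Epi.

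**Figure D2:**
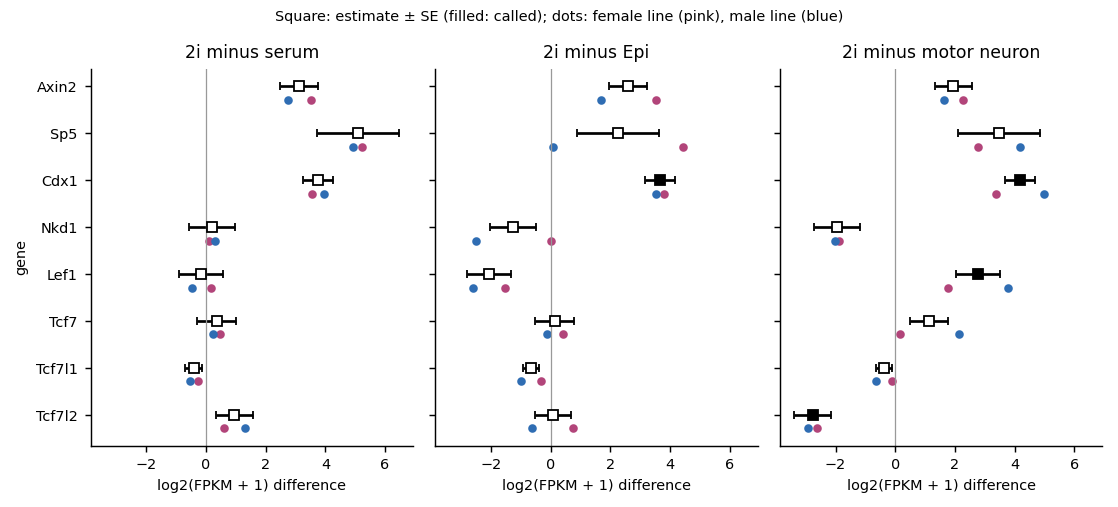
Difference in log2(FPKM + 1) between 2i and serum, Epi or motor neuron cultures for the 8 tested genes. Squares are limma estimates with their SE from 8 cultures, filled where called, and dots are the differences within the female (pink) and male (blue) line. Filled squares are Cdx1 against Epi, and Cdx1, Lef1 and Tcf7l2 against motor neuron cultures.

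Nkd1 and Lgr5, also known as Wnt targets, were not high in 2i. Nkd1 (ENSMUSG00000031661, chromosome 8, 88521354 to 88594884, + strand) encodes naked cuticle 1, which binds Dishevelled and dampens the pathway. Its mean was 0.385 and 0.416 FPKM in 2i, 0.293 and 0.162 in serum, 0.371 in female and 7.07 in male Epi, and 4.17 and 4.75 in the motor neuron cultures. In male Epi 87.3% of cells had it at 1 FPKM or more, against 13.3% and 17.6% in 2i and 12.7% in female Epi. The endoderm markers and the median sum of the primed markers given for Sp5 moved with this, and their part in it was not tested. The difference of 2i from Epi was -1.25 ± 0.77 (limma, adjusted p = 0.492), from 0.01 in the female line and -2.51 in the male line. Without the female Epi culture it was -2.53 and was called (limma, adjusted p = 0.0182), in a fit that takes the spread of the lone male Epi culture from the other groups and that called 332 genes higher and 380 lower, against 58 and 45 with all cultures. Against the motor neuron cultures the difference was -1.96 ± 0.77 (limma, adjusted p = 0.0930).

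Lgr5 (ENSMUSG00000020140, chromosome 10, 115450311 to 115587780, minus strand), an R-spondin receptor known as a marker of intestinal stem cells, was at 0.00363 FPKM in female and 0.290 in male 2i cells. In 2i, 0 of 60 female cells (which allows a share of up to 5.00%) and 13.7% of male cells had it at 1 FPKM or more. Its highest shares were 22.2% of male Epi cells and 21.95% of the 7-passage Epi cells, with means of 1.94 and 2.06. A pair of other means rest on 1 cell each: the E3.5 mean of 3.15 was 0.00954 without its highest cell (72.3 FPKM), and the female motor neuron mean of 2.11 was 0.455 without its highest (65.1).

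**Figure D3:**
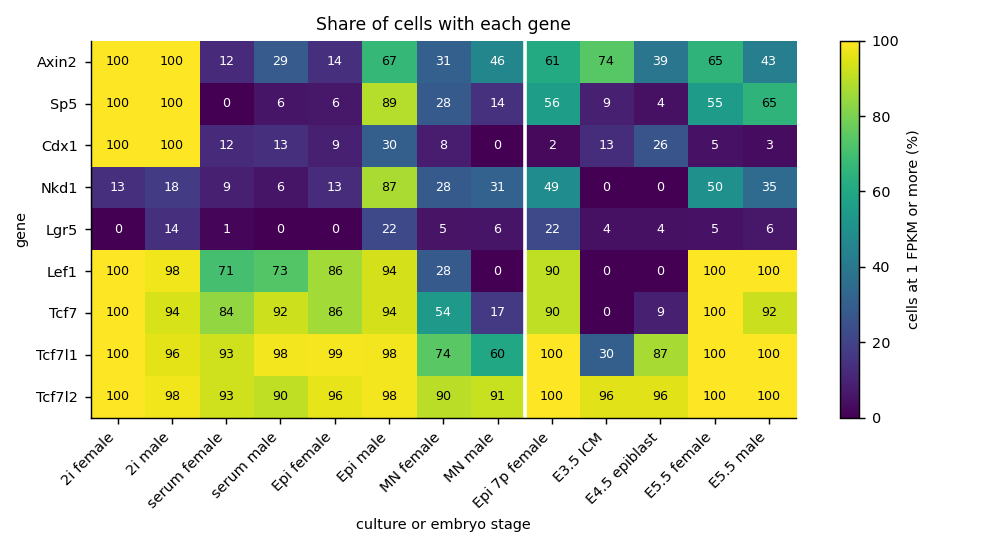
Percent of cells with each gene at 1 FPKM or more, by culture or embryo stage, with the rounded percent printed in each square (MN, motor neuron; 7p, 7 passages). Axin2, Sp5 and Cdx1 are at 100 in both 2i columns, Nkd1 is highest in male Epi, and Lef1 and Tcf7 are at 0 to 9 in E3.5 and E4.5 cells.

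Among the 4 genes for the DNA-binding factors, Lef1 was highest in Epi cells and Tcf7l2 in the motor neuron cultures. Lef1 (ENSMUSG00000027985, chromosome 3, 131110471 to 131224356, + strand) had a mean of 16.9 and 12.7 FPKM in 2i, 15.1 and 17.97 in serum, 51.2 and 82.5 in Epi, and 4.31 and 0 in the motor neuron cultures. The cultures in 2i and in serum overlapped, and both Epi cultures stood above all 6 others. The log2 difference of 2i from serum was -0.16 ± 0.74 (limma, adjusted p = 1.00), while the shares of cells with the gene stood apart: Lef1 was at 1 FPKM or more in 100% and 98.04% of cells in 2i and in 70.6% and 73.1% in serum. The coefficient of variation over cells was 0.433 and 0.564 in 2i and 1.51 and 1.14 in serum. How many of all genes had shares or variation apart in this way was not counted, so these values show nothing particular to Lef1. Median cells held 10400 and 10393 genes at 1 FPKM or more in 2i, and 9443.5 and 9645 in serum. Averaged as log2 over cells, the difference from serum was 0.85 (limma, adjusted p = 0.684).

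Against Epi, Lef1 was lower in 2i by a log2 difference of -2.07 ± 0.74 that did not pass (limma, adjusted p = 0.266). Against the motor neuron cultures it was called higher in 2i, by 2.77 ± 0.74 (limma, adjusted p = 0.0299). The male motor neuron culture was listed at 0 in 35 of 35 cells, so this difference depends on the pseudocount and is no fold. The call held in 10 of 20 alternatives, and leaving out either 2i culture, either serum culture or either Epi culture ended it (adjusted p = 0.0547 to 0.155). The difference was 1.56 without the male and 3.97 without the female motor neuron culture, and called in both (limma, adjusted p = 0.0419 and 0.00366).

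Tcf7 (ENSMUSG00000000782, chromosome 11, 52252371 to 52283014, minus strand) is known as Tcf1. In the 6 cultures of the main table in 2i, serum or Epi, its means lay between 8.08 FPKM (female serum) and 11.6 (female 2i and male Epi). It was at 10.2 in the female and 1.64 in the male motor neuron culture. With all 8 cultures no difference of 2i from another state was called for Tcf7, and the log2 differences were 0.35 (serum), 0.13 (Epi) and 1.14 (motor neuron), each with an SE of 0.64 (limma, adjusted p = 0.982, 0.960 and 0.204). The last rests on the male motor neuron culture: it was 0.11 without that culture, and 2.18 and called without the female one (limma, adjusted p = 0.00779). Tcf7l1 (ENSMUSG00000055799, chromosome 6, 72626378 to 72789254, minus strand) was at 14.0 and 9.26 in 2i, 17.1 and 14.0 in serum, 17.9 and 19.4 in Epi, and 15.1 and 15.2 in the motor neuron cultures. Female 2i and male serum were at the same level. Its differences were -0.41 (serum), -0.66 (Epi) and -0.38 (motor neuron) with an SE of 0.28, and none was called (limma, adjusted p = 0.762, 0.331 and 0.313). The last became 0.37 with upper-quartile scaling, so no direction is given for it.

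Tcf7l2 (ENSMUSG00000024985, chromosome 19, 55741820 to 55933654, + strand), known as Tcf4, had the widest range of the 4. Its mean was 19.5 and 27.97 FPKM in 2i, 12.5 and 10.8 in serum, 11.2 and 43.2 in Epi, and 126 and 216 in the motor neuron cultures. Both motor neuron cultures stood above all other groups, the next being male Epi and then male E5.5 cells, at 39.5. The difference of 2i from the motor neuron cultures was called at -2.77 ± 0.61 (limma, adjusted p = 0.0162), and 15 of 20 alternatives had an adjusted p under 0.05. Leaving out female 2i (adjusted p = 0.107), male 2i (0.0703) or the male motor neuron culture (0.0905) ended the call. So did the mean of log2 values over cells (-1.62, limma adjusted p = 0.0747) and the lower of the 2 runs of title numbers described below (-2.19, 0.0586). Against serum the difference was 0.95 ± 0.61 (limma, adjusted p = 0.742). Cells of each 2i culture fall into 2 runs of title numbers, whose meaning the labels do not give, and Tcf7l2 differed between them: 24.7 and 14.3 FPKM in the lower and higher run of the female culture, and 42.7 and 16.8 in the male. Axin2 differed in the same order (21.2 and 12.2, 21.1 and 12.7), and all cells of both runs held Axin2, Sp5 and Cdx1.

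As shares of the summed FPKM of the 4 genes, which is per length, no gene exceeded 46.3% in 2i or serum. In 2i Tcf7l2 took 31.4% (female) and 46.3% (male), and Lef1 27.3% and 21.01%. In Epi Lef1 took 57.6% and 52.7%. In the motor neuron cultures Tcf7l2 took 80.9% and 92.8%. The sum itself was 62 and 60.4 FPKM in 2i, 52.8 and 51.6 in serum, 88.8 and 157 in Epi, and 155 and 233 in the motor neuron cultures.

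**Figure D4:**
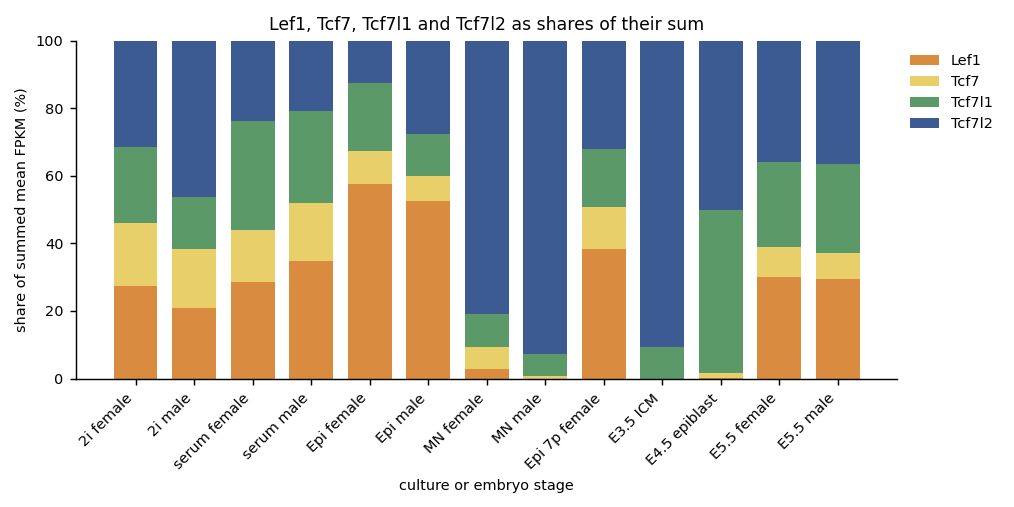
Mean FPKM of Lef1, Tcf7, Tcf7l1 and Tcf7l2 as percent of their sum, by culture or embryo stage (MN, motor neuron; 7p, 7 passages). Lef1 takes over 50% in both Epi cultures of the main table, and Tcf7l2 takes 80.9% and 92.8% in the motor neuron cultures and 90.7% at E3.5, where 1 cell carries most of it.

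Within the motor neuron cultures, the high Tcf7l2 lay mostly in cells that did not score higher for neuron than for endoderm markers. Cells were split by whether the mean log2(FPKM + 1) of 6 neuron markers exceeded that of 7 endoderm markers, none of them among the 9 genes. This gave 26 neuron-scored and 13 endoderm-scored cells in the female culture and 20 and 15 in the male, with 1 cell within 0.5 of the boundary. The classes are ranges of a score, not cell types. Neuron-scored cells did not lack endoderm markers. Of the 20 male ones, 17 had Sox17 at 1 FPKM or more, 14 Foxa2, 12 Gata4, 10 Ttr, 9 Gata6 and 0 Afp or Apoa1. Of the 26 female ones, 10 had Foxa2, 7 Gata6, 6 Sox17, 2 Gata4, 1 Afp, 1 Apoa1 and 0 Ttr. In neuron-scored cells Slc18a3 was at 1 FPKM or more in 12 of 26 female and 20 of 20 male cells. Chat was at that level in 5 of 26 and 12 of 20, Isl1 in 15 and 17, Mnx1 in 3 and 4, and Lhx3 in 0 and 0. The endoderm markers summed to 0 to 819 FPKM per female and 3.00 to 2821 per male cell, with 6 and 5 of 7 at a mean of 1 FPKM or more and Afp listed at 0 in the male culture. In 2i the sums ran up to 8.28 and 111.2, with 0 and 1 of 7 at that mean. The part of these cells in the difference between 2i and the motor neuron cultures was not tested. Tcf7l2 had a mean of 58.1 FPKM in neuron-scored and 260.9 in endoderm-scored cells of the female culture, and 60.4 and 424 in the male. Tcf7l1 went the same way, with 10.7 and 24.1 in the female and 4.58 and 29.4 in the male culture. Nkd1 went the other way, at 6.08 and 0.361 in the female and 8.01 and 0.396 in the male.

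Cells overlapped between classes for each of these genes: Tcf7l2 reached 148.6 FPKM in female neuron-scored cells and went down to 16.5 in endoderm-scored ones. These are 2 cultures with no test. Lef1 was at 6.47 in the neuron-scored cells of the female culture and listed at 0 in the other 3 classes. The same female neuron-scored cells had Pou5f1, a pluripotency factor, at a mean of 78.6 FPKM, against 0.781 in the male ones, and its part in the Lef1 level was not tested.

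**Figure D5:**
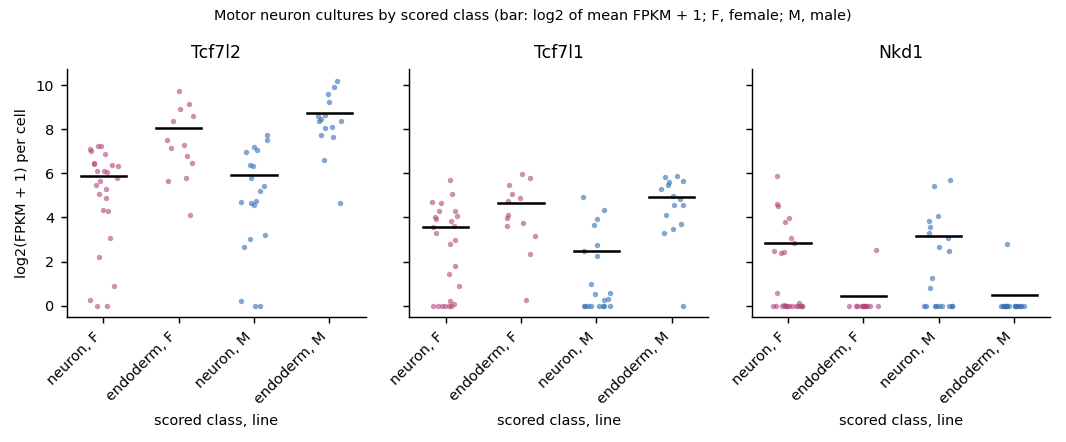
Tcf7l2, Tcf7l1 and Nkd1 in each cell of the motor neuron cultures, as log2(FPKM + 1), by scored class and line (F, female, pink; M, male, blue). Bars are log2 of the mean FPKM + 1. Tcf7l2 and Tcf7l1 have their higher bars in endoderm-scored cells and Nkd1 in neuron-scored cells in both lines.

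Axin2, Sp5 and Cdx1 had lower means in every embryo group than in 2i, Axin2 being nearest at E3.5. These tables were normalised separately from the cultures, and each stage is 1 sample with no test. Sp5 was at 0.287 FPKM at E3.5, 0.223 at E4.5, and 2.98 (female) and 8.51 (male) at E5.5. Axin2 was at 9.85, 3.30, 2.63 and 2.23. The E3.5 mean rests partly on 1 cell with Axin2 at 132.4 and Tcf7l2 at 407, which had the highest FPKM sum of its group (7897578, against a lowest of 483476) and 4662 genes, against a median of 8122. Medians were 2.74 at E3.5 and 0.311 at E4.5 for Axin2.

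Tcf7l1 was higher at E4.5 than at E3.5, with means of 9.55 and 2.83 FPKM, medians of 5.80 and 0.340, and 87.0% against 30.4% of cells. The log2 ratio was 1.46, and 1.41 without the E3.5 cell of the highest sum, in which Tcf7l1 was listed at 0. Tcf7l2 had a log2 ratio of -1.39 with that cell and -0.06 without it, and Axin2 -1.33 and -0.29. Trophectoderm markers moved with the stage: their summed level had a median of 178 FPKM per E3.5 cell (19.8 to 1588) and 1145 per E4.5 cell (5.12 to 3124), with 6 of 6 markers at a mean of 1 FPKM or more at both, and their part in the Tcf7l1 difference was not tested.

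Lef1 and Tcf7 were near 0 in blastocyst cells and present in E5.5 cells. Lef1 was listed at 0 in 23 of 23 E3.5 cells (which allows a share of up to 13.0%) and in 22 of 23 E4.5 cells, and was at 29.8 and 32.1 FPKM in E5.5 cells, where 20 of 20 female and 63 of 63 male cells had it. Tcf7 was at 0 and 0.293 FPKM in blastocyst cells and at 8.80 and 8.17 at E5.5. Tcf7l1 had its highest mean of all groups at E5.5, 24.8 and 28.8. Tcf7l2 was the main one of the 4 at E3.5, with 90.7% of their sum, or 77.7% without the cell of the highest sum, and shared E4.5 with Tcf7l1 (50.1% and 48.4%). Endoderm markers summed to medians of 1978 and 449 FPKM per cell in female and male E5.5 cells, ranging from 9.22 to 8753, with 6 of 7 markers at a mean of 1 or more in both, and their part in these levels was not tested.

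Levels of the mesendoderm gene T (Brachyury), itself a Wnt target, were set beside the 9 genes across the cells of 7 groups. Of 63 gene and group pairs, 11 had a Spearman rho of at least 0.3 in size, from 6 genes and 5 groups. The same count was not made over all genes, so it shows nothing particular to the 9. For Lef1 the sign differed between groups. The largest rho was 0.69, for Sp5 in the 63 male E5.5 cells, where T had a mean of 21.2 FPKM. In the 20 female E5.5 cells rho was 0.04 for Sp5, 0.41 for Nkd1 and 0.34 for Cdx1. In the 63 male Epi cells rho was 0.38 for Cdx1, -0.40 for Tcf7l2 and -0.10 for Sp5. In female Epi, where T was at 2.2 FPKM, all 9 lay between -0.09 and 0.12. In the 41 cells of 7 passages rho was 0.35 for Axin2 and -0.35 for Lef1, and in the 51 male 2i cells 0.43 for Lef1 and 0.31 for Sp5. Cells of 1 group are not replicates, their depth is not given by FPKM, and these values are descriptions.

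A further 86 genes in 8 lists, of which 60 were tested, showed no call against serum or Epi by limma. Of the 8 lists, 7 are of pathway genes and targets, and 1 is of 4 naive genes that Tcf7l1 represses. Unadjusted limma p was under 0.05 for 11 and 22 of the 60, beside 1549 and 2362 of all 15504 genes tested. The median differences were 0.17 and -0.31, beside 0.00 and -0.13 over all genes. Among secreted inhibitors, Notum, an enzyme that inactivates Wnt ligands, was at 26.5 and 14.8 FPKM in 2i and 1.06 and 2.79 in serum (log2 difference 2.90, limma adjusted p = 0.257). Sfrp1, a secreted Wnt-binding protein, was at 32.6 and 28.8 against 3.53 and 4.36 (2.68, limma adjusted p = 0.129). Both 2i cultures lay above both serum cultures for each, as they did for 26.2% of all genes.

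The receptor Fzd10 was at 7.08 and 9.70 FPKM in 2i against 0.852 and 0.691 in serum. The ligand Wnt8a was listed at 0 in both 2i cultures and was at 2.60 and 2.62 in serum. The other target with the largest difference was T, at 20.2 and 23.9 FPKM in 2i, 0.728 and 0.816 in serum, 2.2 and 154 in Epi. Porcn, the acyltransferase that Wnt secretion needs, had lower means in 2i, at 6.86 and 17.1 against 38.2 and 26.2 in serum (limma, adjusted p = 0.653). Over the 11 genes of the destruction complex and transducers the median difference from serum was 0.12. Of these, Csnk1a1, casein kinase 1 alpha, was at 104.7 and 114.7 against 94.6 and 123.8, and Apc at 7.05 and 5.15 against 3.59 and 3.23.

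Against the motor neuron cultures 9 of the 60 (15%) were called higher and 18 (30%) lower in 2i, beside 3.96% and 29.6% of all genes. The median was -1.04, beside -0.66 over all genes, and the share called lower was near that of all genes. On the naive list are 3 of the 9 called higher: Nanog, Esrrb and Tfcp2l1. Gsk3b was lower in 2i, at 12.4 and 13.6 FPKM against at least 81.9 in both motor neuron cultures (log2 difference -2.74, limma adjusted p = 0.00300). Ctnnbip1, which blocks the binding of beta-catenin to Tcf factors, was at 5.72 and 4.15 against 68.1 and 87.1 (-3.73, limma adjusted p = 0.00190), and the receptor Fzd3 at 1.02 and 1.03 against 10.8 and 13.7 (-2.70, limma adjusted p = 0.00637). The R-spondin receptor Lgr4 was at 9.27 and 7.68 against 38.2 and 54.6 (-2.31, limma adjusted p = 0.00632).

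Of the 4 naive genes known to be repressed by Tcf7l1, Nanog, Esrrb and Tfcp2l1 were called higher in 2i than in motor neuron cultures, by 6.59, 4.56 and 5.12. Against serum 0 of the 4 were called, and 1 had an unadjusted limma p under 0.05, beside 1549 of 15504 genes tested. Both 2i cultures lay above both serum cultures for all 4, as they did for 26.2% of all genes. The median difference was 1.43, beside 0.00 over all genes. Tfcp2l1 was at 70.7 and 78.7 FPKM in 2i against 5.33 and 5.53 in serum (3.56, limma adjusted p = 0.163), and Nanog at 278.4 and 293 against 93.5 and 100.5. Tcf7l1 itself differed from serum by -0.41, as given above. A pair of genes passed the test in no comparison and are given for their level: the receptor Ryk, at 9.49 and 7.48 FPKM in 2i, and the corepressor Tle3, at 17.6 and 18.2. The target Ccnd1, cyclin D1, was at 107 and 121.7 in 2i against 55.6 and 22.1 in the motor neuron cultures and was called higher (1.67, limma adjusted p = 0.0496).

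Genes with the pattern most like each of the 8 over the 8 cultures were found by Pearson r of log2(mean FPKM + 1), over those averaging 5 FPKM or more. They were Aff1 (0.979) and Lhpp (0.960) for Axin2, Pdlim4 (0.975) and Sfrp1 (0.963) for Sp5, and Trpm1 (0.984) and Srarp (0.972) for Cdx1. Trpm1 was at 639 and 525 FPKM in 2i and at 0.196 to 9.32 in the 6 other cultures. Bcl2l1 (0.998) and Cdipt (0.994) went with Tcf7l2, Gm8731 (0.987) and Rrp12 (0.984) with Lef1, Nop14 and Nhej1 (both 0.962) with Tcf7l1, Gng5 (0.990) and Tnfrsf1a (0.989) with Nkd1, and Snord93 (0.969) and Mir7688 (0.966) with Tcf7. These are the top of a long list of genes over 8 points that share their lines, and carry no test.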

How the data were processed

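Per the labels' protocols, libraries of 617 single cells were made with SMART-seq2 and Tn5. The authors deposited FPKM per gene and cell in 4 tables, and the submitters' processing notes name STAR 2.4.1, Cufflinks, Cuffnorm 2.2.1 and mm10, with no role or order. The 4 tables were normalised separately, so tests stayed within the table of 8 cultures. In 356 values the exponent sign was a low line, and these were read as small numbers (the largest is 9.76e-05). FPKM does not give read depth, so values near 1 FPKM are imprecise and no counting error per gene is given.

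Cells were grouped by labelled cell type, sex and table. Mean FPKM per culture entered 1 limma 3.58.1 fit (R 4.3.3, trend on) of log2(mean + 1) over the 15504 genes that averaged 1 FPKM or more, with 4 residual degrees of freedom and 3 contrasts (2i against serum, Epi and motor neuron). Genes with a log2 difference of 1 or more in size and an adjusted p (Benjamini-Hochberg) below 0.05 were called. Nothing in the labels says that the lines were cultured more than once, so p-values measure the spread between the 2 lines. Symbols and coordinates are from GENCODE M21 (GRCm38, which is mm10), and promoters from RefSeq GRCm38.p6. The lines pair the samples, since each line gave 1 culture of every state, and the differences between the lines correlated from state to state at Pearson r of 0.06 to 0.16. The fit was tested on simulated data. Alternatives covered the pseudocount, the filter, the averaging, the scaling, cells with few genes (1 cell left out), the line as a block and only the 4 cultures compared. They also covered runs of title numbers, leaving out each culture and dropping the fold-change threshold. The last reuses the main fit and cannot end a call, so each tally of alternatives that kept a call includes it.

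The 9 genes and all lists were chosen with earlier results of these data known. Named pathway genes are, per list, the gene with the highest mean in 2i and the one with the largest difference from serum, and up to 3 called genes each way per contrast. No value columns were left unmapped.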

Additional observations from a re-analysis of the deposited data

Results flagged for a closer look

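Tcf7l2 is flagged in the comparison of 2i with Epi because the 2 lines moved opposite ways, each by at least 0.5 on the log2(FPKM + 1) scale. The difference of 2i from Epi was 0.75 in the female line and -0.61 in the male line. Each line gave 1 culture per state, so the difference between the lines was not tested. The female Epi culture, at 11.2 FPKM of Tcf7l2 against 43.2 in the male one, is also the Epi culture that kept Zfp42 at 72.5 FPKM, and the part of this in the difference was not tested.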

How the results depend on the processing

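Depth is not given by FPKM values, and 2 cultures per state limit every test. The 20 alternatives left the number of the 8 tested genes called against serum at 0, except 2 (Axin2 and Cdx1) with the mean of log2 values over cells. Against Epi the 1 call became 0 with a pseudocount of 0.1, no filter, a mean of at least 5 FPKM, the line as a replicate block, only the 4 cultures compared, and either run of title numbers, and 2 with the mean of log2 values. Leaving out 1 culture gave 0 to 1 there, 1 to 5 against motor neuron cultures and 0 against serum. Against motor neuron cultures the 3 calls became 5 with the mean of log2 values, where Tcf7l2 was lost and Axin2, Sp5 and Tcf7 were gained, and 5 with only the 4 cultures compared, where Lef1 was lost (limma, adjusted p = 0.119) and Axin2, Sp5 and Nkd1 were gained. Where leaving out a culture leaves a state with 1, that culture is assumed to vary like the other groups. The replicate block changed 2 calls of single genes (Cdx1 against Epi lost, Axin2 against motor neuron gained) and no other call.

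Of the 9 genes, 4 were 2-fold or more apart between E3.5 and E4.5. The number was 1 with the mean of log2 values and 2 with each cell rescaled to a sum of 1000000. It was also 2 without the E3.5 cell of the highest sum, an alternative chosen after seeing the data. The share of all genes that far apart was not counted, so these numbers show nothing particular to the 9. Signs turned in 15 of 477 single-gene alternatives, all in differences that were not called, and the cause was not tested. Against serum Lef1 became 0.85 (mean of log2 values), -0.35 to 0.04 on leaving out 1 culture, and 0.04 (higher run of title numbers), and Nkd1 -0.09 (higher run). Against Epi, leaving out 1 culture gave -0.06 (without female Epi) to 4.58 for Sp5, -0.07 to 0.33 for Tcf7, -2.53 to 0.03 for Nkd1, and for Tcf7l2 -0.18 without male 2i and -0.86 to 1.00 over all. Tcf7 became -0.06 and Tcf7l2 -0.16 with rescaled cells, and Tcf7l2 -0.67 with the higher run. Against motor neuron cultures Tcf7l1 became 0.54 (mean of log2 values), 0.01 (rescaled) and 0.37 (upper-quartile scaling).

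Counts over all genes moved by over 1.5 times. Against serum, 2 higher and 1 lower became 213 and 11 with the mean of log2 values, and 0 and 0 with the replicate block. Against Epi, 58 and 45 became 332 and 380 without female Epi, 57 lower with the mean of log2 values (81.8% of the called genes were then higher), and 0 and 0 without male 2i or either serum culture. Against motor neuron cultures, 614 and 4582 became 1774 and 2486 with upper-quartile scaling, 1045 and 2531 with rescaled cells, 1408 and 2288 with the mean of log2 values, and 177 and 1650 without female 2i.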
